A study of Homo sapiens with 6 samples.

Results

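Latexin (LXN), its paralog RARRES1 and 4 metallocarboxypeptidase genes, CPA4, CPA1, CPD and CPE, were examined in PANC-1 cells after ZDHHC20 silencing. PANC-1 is an established line of human pancreatic cancer cells. Of these 6 genes among the 27394 of the table, 5 had values, and CPA1 was not analysed here. The genes were listed by name, but they were chosen by a reading of the shZDHHC20 against shControl differences in these same libraries. Their own differences are therefore given as a description. They were part of the fit over all genes, but no test is read for them. The short hairpin groups were compared, shControl cells carrying a control shRNA and shZDHHC20 cells carrying an shRNA against the palmitoyltransferase ZDHHC20, with 3 libraries in each. The labels give total RNA and a directional library kit. Which ZDHHC20 shRNA these libraries carry, and whether the cells were a pool or 1 clone, are not given in the sources used here, and the table's own headers write si where the labels write sh. The study states biological replicates for its in vitro experiments in general, while the labels of these libraries do not say whether they came from separate cultures. If they did not, the p-values measure only a spread that may be technical.

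Metallocarboxypeptidases use zinc to cut single amino acids from the C-terminal ends of proteins and peptides. The A/B enzymes are made as secreted proenzymes, as CPA1 is by the acinar cells of the pancreas for digestion. The N/E enzymes trim basic residues, CPE in the granules of endocrine cells and CPD in the trans-Golgi network of most cells. Cytosolic carboxypeptidases shorten the tails of tubulin. Latexin is the endogenous protein inhibitor of the A/B enzymes in mammals and binds CPA4, among others. It is built of cystatin-like folds, which RARRES1, a membrane protein first found as a retinoic acid response gene, shares. CPD and CPE are N/E enzymes and are not counted among the known targets of latexin here.

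LXN was a highly expressed gene in these cells, and its level was higher in each shZDHHC20 library. The deposited value, called normalized count here, is a gene count scaled by 1 factor per library and not divided by gene length. The normalized count of LXN was 5009, 5153 and 4878 in the shControl libraries and 8142, 8026 and 8287 in the shZDHHC20 libraries, each in the order of replicates 1, 2 and 3, which is kept below. The groups did not overlap, and the lowest shZDHHC20 library stood far above the highest shControl library. The shControl mean was 5013 ± 137.7 and the shZDHHC20 mean 8151 ± 130.7 (SD, n = 3 for both), which is 163% of the control. On the log2(normalized count + 0.1) scale the difference was 0.70 with a standard error of 0.0439, or 1.63-fold. Among the 4136 genes whose mean reached 1000, LXN ranked 5 from the top by this log2 difference. Those genes had a median difference of -0.01, with 2.5% of them below -0.48 and as many above 0.34. Among all 22189 genes tested, low ones included, LXN ranked 2862 from the top. It was chosen on this contrast, so these places are a description and not a test. Quantile normalization gave a log2 difference of 0.75 for LXN, and leaving out any 1 library gave values from 0.68 to 0.72.

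**Figure D1:**
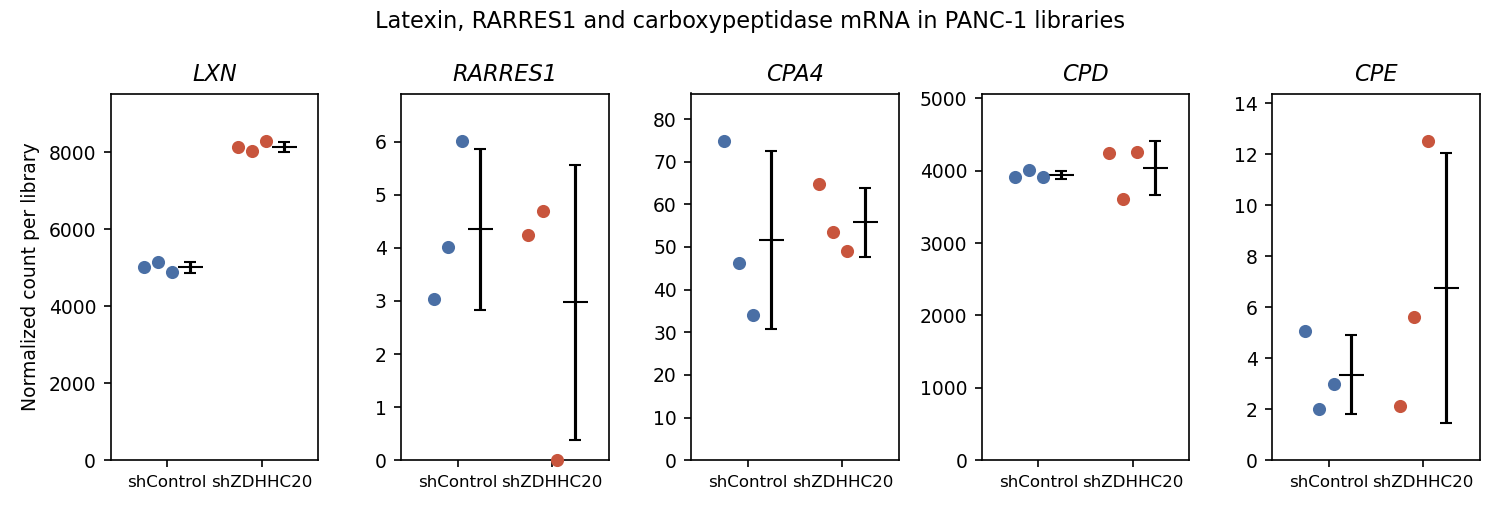
Normalized counts of LXN, RARRES1, CPA4, CPD and CPE by library, on linear axes that start at 0. Points are libraries, blue for shControl and red for shZDHHC20, and black bars show the mean and SD (n = 3). The LXN groups are apart, at 4878 to 5153 and 8026 to 8287, while the groups overlap in the other 4 genes.

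RARRES1 was near the limit of detection in both groups. Its normalized count was 3.03, 4.02 and 6.01 in the shControl libraries and 4.24, 4.70 and 0 in the shZDHHC20 libraries. These are between 0 and 6 steps of the smallest value of each library. The means were 4.35 ± 1.52 and 2.98 ± 2.59 (SD, n = 3 in each group), and the groups overlapped. Its log2 difference was -1.75 with a standard error of 1.36, and it was -0.75 with a pseudocount of 1, -2.84 with a pseudocount of 0.01 and 0.09 without shZDHHC20 replicate 3, the library listed at 0. No direction can be read for RARRES1 at this depth.

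The start regions of LXN, RARRES1 and CPA4 are shown because the latexin paralogs, which lie near each other on chromosome 3 in the same orientation, differ widely in level, and CPA4 is the enzyme among the members that latexin is known to bind. The windows run from 250 bases before to 50 bases after the annotated start, from RefSeq on GRCh38.p14, all printed 5′ to 3′ on the gene's strand. Capitals mark matches on either strand to TATAAA, the TATA box, and to AGGTCA, the core letters of a retinoic acid receptor site. The third motif searched, CACGTG, the E-box of MYC and MAX, had no match in these windows.
LXN, chr3:158672599-158672898, minus strand: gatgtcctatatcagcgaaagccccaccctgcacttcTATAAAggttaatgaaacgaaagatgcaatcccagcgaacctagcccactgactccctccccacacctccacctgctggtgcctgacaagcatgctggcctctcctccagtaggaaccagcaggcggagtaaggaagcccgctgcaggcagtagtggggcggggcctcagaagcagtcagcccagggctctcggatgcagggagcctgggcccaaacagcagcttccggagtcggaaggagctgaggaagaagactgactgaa
RARRES1, chr3:158732408-158732707, minus strand: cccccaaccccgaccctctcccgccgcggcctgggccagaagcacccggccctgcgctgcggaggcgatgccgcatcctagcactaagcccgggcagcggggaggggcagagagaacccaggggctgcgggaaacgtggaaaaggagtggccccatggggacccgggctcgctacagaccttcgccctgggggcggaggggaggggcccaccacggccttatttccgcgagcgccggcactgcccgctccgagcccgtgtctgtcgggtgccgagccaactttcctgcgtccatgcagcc
CPA4, chr7:130292911-130293210, plus strand: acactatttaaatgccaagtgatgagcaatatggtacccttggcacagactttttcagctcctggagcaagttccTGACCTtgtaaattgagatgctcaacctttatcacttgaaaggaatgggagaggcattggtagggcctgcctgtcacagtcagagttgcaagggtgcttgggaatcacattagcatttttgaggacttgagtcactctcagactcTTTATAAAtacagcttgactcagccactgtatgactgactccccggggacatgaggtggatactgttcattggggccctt
The LXN window held 9 CpG dinucleotides and 58.7% G and C, the RARRES1 window 28 CpG and 72.0%, and the CPA4 window 1 CpG and 46.3%. Over all 35116 windows of this length the median was 14 CpG, and 41.6%, 73.8% and 3.96% of them held fewer CpG than LXN, RARRES1 and CPA4. CPA4 had a TATAAA match on its own strand starting 28 bases before its start. It overlapped a match on the reverse strand that begins 30 bases before the start. The 1 AGGTCA match of CPA4 was also on the reverse strand. LXN had a TATAAA match 213 bases before its start, and RARRES1 had no match to any of the motifs. TATAAA is in 11.5% of all windows, AGGTCA in 13.8% and CACGTG in 7.26%. These are matches of letters, and binding was not measured.

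CPA4, a secreted enzyme that removes hydrophobic residues and that is bound by latexin, was expressed at a low level. Its normalized count was 74.8, 46.2 and 34.04 in the shControl libraries and 64.7, 53.5 and 49.1 in the shZDHHC20 libraries. The shControl libraries spanned all of the shZDHHC20 libraries. The means were 51.7 ± 20.9 and 55.8 ± 8.02 (SD, n = 3 in each group), with a log2 difference of 0.18 and a standard error of 0.269. The difference was 0.48 without shControl replicate 1 and -0.0857 without shControl replicate 3, so its sign depended on a single control library.

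CPD, the carboxypeptidase of the trans-Golgi network, was the enzyme with the highest level among the members. The shControl libraries were close together at 3914, 4007 and 3906. The shZDHHC20 libraries were at 4239, 3613 and 4260. Replicates 1 and 3 of shZDHHC20 were above, and replicate 2 below, every shControl library. The means were 3942 ± 56.5 and 4037 ± 368 (SD, n = 3 in each group), and the log2 difference was 0.03 with a standard error of 0.0619. Without shZDHHC20 replicate 2 it was 0.11, and its sign changed without shZDHHC20 replicate 1 (-0.00686) or replicate 3 (-0.0105). Replicate 2 also stood apart over the 4136 genes whose mean reached 1000, and how far that bears on CPD was not tested.

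CPE, which trims prohormones after their first cleavage, had normalized counts of 5.05, 2.01 and 3.004 in the shControl libraries and 2.12, 5.63 and 12.5 in the shZDHHC20 libraries. The highest value was in shZDHHC20 replicate 3 and the groups overlapped. The means of 3.36 ± 1.55 and 6.75 ± 5.29 (SD, n = 3 in each group) rest on 2 to 13 steps of the smallest value per library. The log2 difference of 0.75 (standard error 0.81) was 0.143 without shZDHHC20 replicate 3 and 1.4 without shZDHHC20 replicate 1.

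In limma's moderated test over the 22189 genes whose mean reached 1, 11.5% of all genes had an adjusted p under 0.05, 4.61% being higher and 6.84% lower in the shZDHHC20 group. Of the 5 members with values, all of which passed the filter on low values, 1 was called, LXN. The groups did not overlap in 28.6% of the genes tested and in 1 of the 5 members, again LXN. The members were chosen on this contrast, so nothing is read from these counts. ZDHHC20 itself averaged 1991 ± 46.9 in shControl and 848 ± 61.02 in shZDHHC20 cells (SD, n = 3 for both), a log2 difference of -1.23 with a standard error of 0.0649 (adjusted p = 4.36e-07 from limma).

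The libraries were alike in depth, with sums of 16575546 to 18441049 steps of the smallest value. The SD of the log2 difference between libraries, over genes with a mean of at least 1000, was at most 0.0722 within a group, except for shZDHHC20 replicate 2, which was at 0.178 and 0.198 from the other shZDHHC20 libraries. Between groups it was at least 0.211. Of the ductal markers, KRT8, KRT18 and KRT19 were abundant, with shControl means of 56190, 19660 and 5917, and the list summed to between 84540 and 86770 in the shControl and 78390 and 79370 in the shZDHHC20 libraries. In that list MUC1 was called higher (log2 difference 0.38) and SOX9 lower (-0.33, adjusted p = 0.00146 from limma), but MUC1 lost its call in 8 of 14 alternatives and SOX9 in 1, without the mean-variance trend (adjusted p = 0.106). The markers of acinar cells with values, PRSS1 and CTRB1 of 8 listed, summed to at most 4.02 in the shControl and to between 5.77 and 11.3 in the shZDHHC20 libraries, and SST, of 6 endocrine markers listed, reached at most 6.36. The blood cell markers with values, PTPRC and CD14 of 4 listed, summed to between 23.3 and 45.1. None of the genes of these 3 lists was called by limma, and of those tested PRSS1 (unadjusted p = 0.0425) was the one under 0.05.

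To compare levels between genes, normalized counts were divided by the length of the merged exons of each gene, which overstates the length of genes with many isoforms. Per kb, LXN was at 3330 ± 91.6 in the shControl and 5420 ± 86.9 in the shZDHHC20 group (SD, n = 3), and it ranked 148 of 22189 genes in the shControl group. CPD followed at 315 ± 4.51 and 322 ± 29.3. CPA4 was at 13.1 ± 5.28 and 14.1 ± 2.03, RARRES1 at 1.95 ± 0.678 and 1.33 ± 1.16, and CPE at 1.13 ± 0.525 and 2.28 ± 1.79. LXN, CPD and CPA4 were separated by far more than their spread in both groups, while RARRES1 and CPE, the neighbours at the bottom of the order, were not. The inhibitor mRNA was well above that of CPA4 in each library. The ratio of LXN to CPA4 per kb was 176, 294 and 377 in the shControl and 331, 395 and 444 in the shZDHHC20 libraries. These ratios overlapped between groups. The ratio of LXN to CPD per kb was from 10.4 to 10.7 in the shControl and from 16.0 to 18.5 in the shZDHHC20 libraries.

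**Figure D2:**
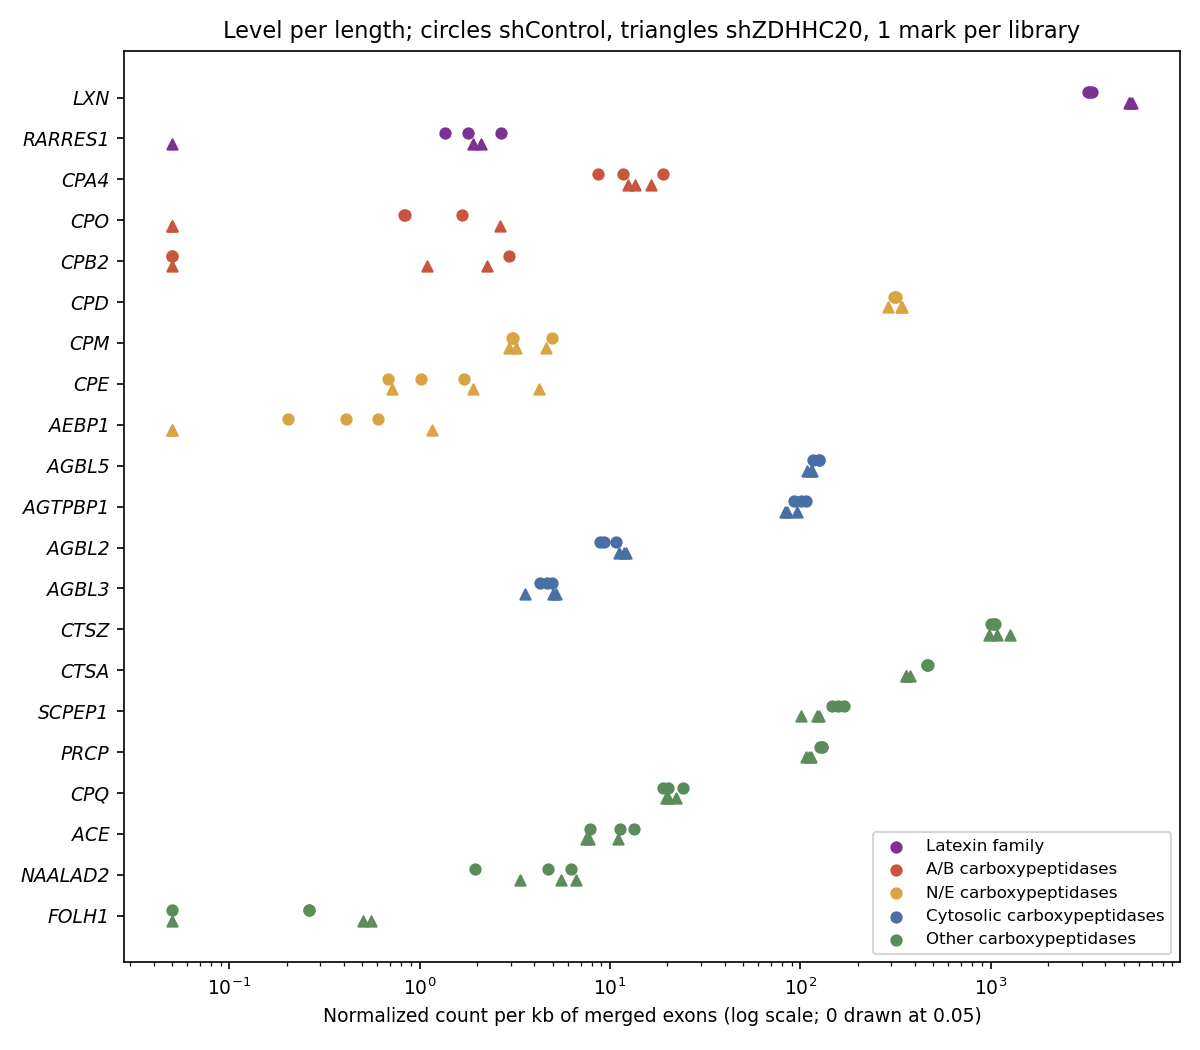
Normalized count per kb of merged exons on a log axis for the tested genes of the latexin family and of the A/B, N/E, cytosolic and other carboxypeptidases, with 1 mark per library, circles for shControl and triangles for shZDHHC20. Among the genes of these classes, LXN is the highest at 3330 and 5420 (group means), and CPA4 is the highest of the A/B enzymes.

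The other metallocarboxypeptidases formed the surrounding family. Of 19 listed genes besides the members, 11 had values and 8 passed the filter. None was called by limma in either direction, 0 of the 8 had an unadjusted p under 0.05, and no other test was run. Over all 22189 genes 11.5% were called and 5286 had an unadjusted p under 0.05, so with 8 genes a count of 0 calls is near the background. Their median log2 difference was -0.08, against 0.01 over all genes tested, with 2 of 8 above 0. In the A/B class, the normalized counts of CPA5, CPB2 and CPO were at most 5.02 in any library. In the N/E class, CPZ was at most 0.962 and AEBP1 at most 5.77. CPM, a carboxypeptidase anchored in the plasma membrane, had means of 27.8 ± 8.10 and 27.0 ± 6.75 (SD, n = 3 in each group).

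The cytosolic class held the most highly expressed of these 8 genes, AGBL5 and AGTPBP1. AGTPBP1, which removes glutamates from tubulin tails, had means of 494 ± 37.4 and 433.9 ± 33.96 (SD, n = 3) and a log2 difference of -0.19 with a standard error of 0.0883 (adjusted p = 0.216 from limma). AGBL5, which acts on branch points of the same chains, had a log2 difference of -0.12 with a standard error of 0.0703 (adjusted p = 0.339 from limma). AGBL2, an enzyme reported to bind both latexin and RARRES1, was between 48.5 and 59.3 in the shControl and between 61.5 and 66.4 in the shZDHHC20 libraries. The AGBL2 groups did not overlap, and neither did those of AGBL5, which was lower in the shZDHHC20 group. Groups did not overlap in 28.6% of all genes tested, so nothing is read from this. The AGBL2 log2 difference of 0.28 (standard error 0.184) did not pass (adjusted p = 0.392 from limma). AGBL3 had a log2 difference of -0.03 with a standard error of 0.255.

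Carboxypeptidases of other mechanisms, serine and cysteine enzymes and unrelated metalloenzymes, were listed too. Of 8 genes tested of 10 listed, 3 fell and none rose, with a median log2 difference of -0.12, where 6.84% of all genes tested fell and 4.61% rose. CTSA, the lysosomal protective protein that stabilizes beta-galactosidase and neuraminidase, had normalized counts of 2714, 2755 and 2698 in the shControl and 2110, 2201 and 2106 in the shZDHHC20 libraries. Its log2 difference was -0.35 with a standard error of 0.0494 (adjusted p = 0.000526 from limma), and the groups did not overlap. SCPEP1, a serine carboxypeptidase, went from 607 ± 43.0 to 447 ± 49.98 (SD, n = 3), a log2 difference of -0.45 (standard error 0.0939, adjusted p = 0.00766 from limma). PRCP, the lysosomal prolylcarboxypeptidase, went from 1651 ± 25.15 to 1417 ± 43.99, a log2 difference of -0.22 (standard error 0.0548, adjusted p = 0.0193 from limma), and lost its call in 6 of 14 alternatives, without shControl replicate 1 (adjusted p = 0.104), 2 (0.0896) or 3 (0.0737), without shZDHHC20 replicate 3 (0.052), with the replicate block (0.0515) and without the mean-variance trend (0.145). CTSZ, a cysteine carboxypeptidase of lysosomes, was not called, with means of 2098 ± 50.75 and 2264 ± 293 (SD, n = 3). CTSA shares 1038 bases of its exons with NEURL2 on the other strand, and the sources used here do not say if reads were counted by strand.

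Cystatins, the inhibitors of cysteine proteases whose fold latexin resembles, were listed for comparison. Of 5 tested of 13 listed, 2 fell and none rose, against 6.84% and 4.61% of all genes tested. The other 3, CSTA, CST1 and CST7, were at most 10.1 in any library. CST3, the secreted cystatin C, had normalized counts of 2142, 2084 and 2045 in the shControl and 1293, 1218 and 1331 in the shZDHHC20 libraries. Its log2 difference was -0.71 with a standard error of 0.0567 (adjusted p = 7.81e-06 from limma), and the groups were far apart. CSTB, the intracellular cystatin B, fell by 0.34 (standard error 0.0586, adjusted p = 0.00194 from limma), from 2017 ± 67.3 to 1590 ± 88.4 (SD, n = 3). The median of the list, -2.34, is set by its low genes.

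The genes that work with CPE on prohormones were also listed. Of 12 tested of 14 listed, 1 rose and none fell, with a median log2 difference of 0.06, and with 11.5% of all genes called this count is near the background. SCG2, secretogranin II, a precursor stored in secretory granules, was at 92.0, 107 and 96.1 in the shControl and at 152, 152 and 159 in the shZDHHC20 libraries. Its log2 difference was 0.65 with a standard error of 0.13 (adjusted p = 0.0057 from limma), and the groups did not overlap. CHGB, of the same list, went the other way and was not called, and its groups did not overlap either. The CHGB log2 difference was -0.33 with a standard error of 0.128 (adjusted p = 0.124 from limma). FURIN, which cleaves proproteins ahead of CPD, had a log2 difference of 0.20 and did not pass (adjusted p = 0.0546 from limma). The granule convertases PCSK1 and PCSK2 were at most 4.81 in any library.

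**Figure D3:**
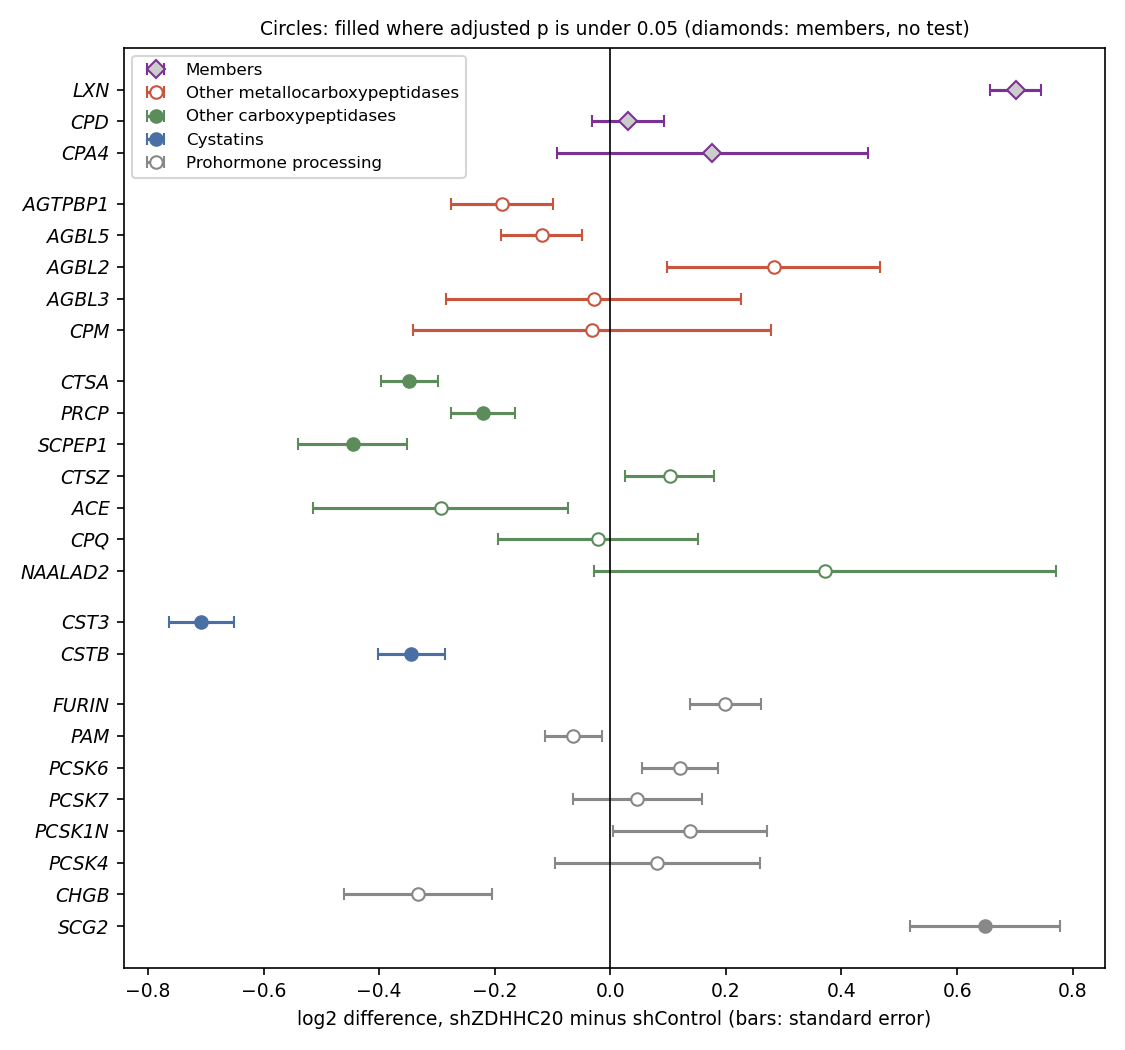
Log2 differences, shZDHHC20 minus shControl, with standard errors for the members, the other metallocarboxypeptidases, the other carboxypeptidases, the cystatins and the prohormone processing genes with a mean of at least 10. Grey diamonds are members, for which no test is read, and filled circles have an adjusted p under 0.05. Among the genes of these 5 classes drawn, LXN (0.70) and SCG2 (0.65) are the highest and CST3 (-0.71) is the lowest.

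LXN lies on chromosome 3 within GFM1, a mitochondrial elongation factor gene on the other strand, and shares 45 of the 1504 bases of its exons with it. GFM1 was at 1566, 1571 and 1610 in the shControl and at 1710, 1620 and 1784 in the shZDHHC20 libraries. Its log2 difference was 0.11 with a standard error of 0.0566 (adjusted p = 0.281 from limma), and 0.143 without shZDHHC20 replicate 2 (adjusted p = 0.0311). Per kb LXN was 19.0 ± 0.764 times GFM1 in the shControl and 28.8 ± 0.961 times in the shZDHHC20 libraries (SD, n = 3). Of the 10 nearest genes with a mean of at least 1, 5 on each side, none was called by limma and 1 had an unadjusted p under 0.05, a non-coding RNA next to LXN on the same strand (ENSG00000272087), at 18.1 ± 4.61 in the shControl and 8.54 ± 3.34 in the shZDHHC20 group. MLF1 (log2 difference -0.11) and MFSD1 (-0.0081), which flank the region, were not called either. RARRES1 shares 331 of its 2236 exon bases with MFSD1 on the other strand, and without strand the reads there cannot be told apart.

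**Figure D4:**
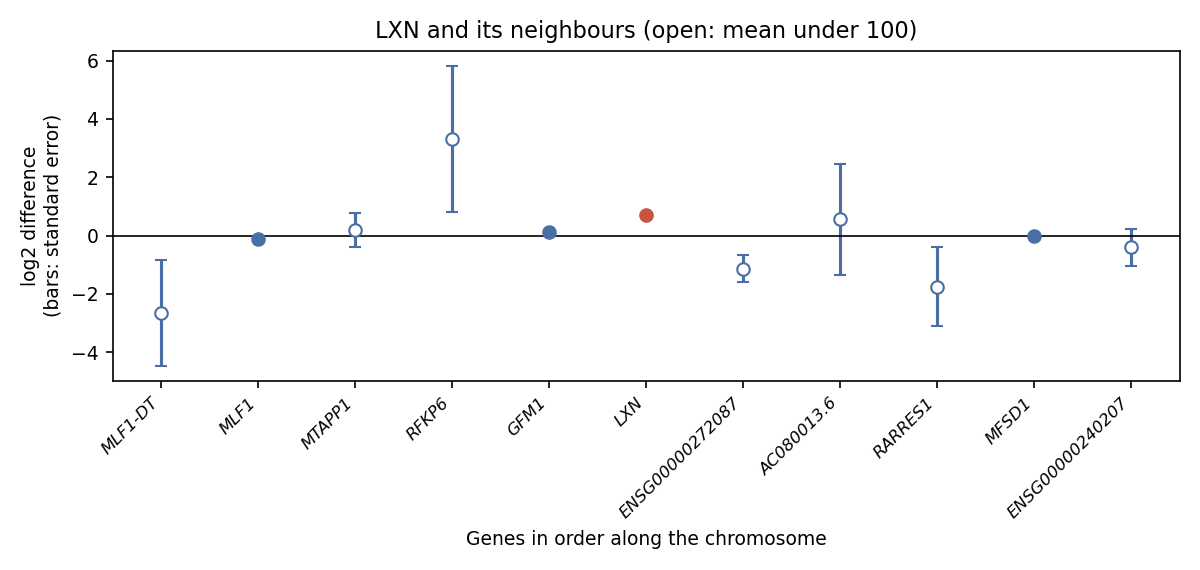
Log2 difference, shZDHHC20 minus shControl, with standard errors for LXN (red) and the 5 nearest genes on each side, in their order along the chromosome. LXN is at 0.70, while the well expressed neighbours MLF1, GFM1 and MFSD1 lie between -0.11 and 0.11, and open points are genes with a mean under 100.

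The genes whose profile over the 6 libraries was most like that of LXN were found by the root mean square difference of log2 values centred on the shControl mean, among 12050 genes with a mean of at least 50. They were ZW10 (0.0364), a kinetochore and Golgi tethering protein, CDS1 (0.0482), a CDP-diacylglycerol synthase, ANXA1 (0.0521), annexin A1, ZNF702P (0.0597), a zinc finger pseudogene, and TM4SF1 (0.0599), a tetraspanin-like membrane protein. ANXA1 went from 3108 ± 190 to 4940 ± 268 and TM4SF1 from 8783 ± 118 to 13670 ± 416 (SD, n = 3 in each group). Their closeness to LXN follows from a like difference between groups, and it is a description over 6 libraries.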

How the data were processed

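RNA-seq was measured in 3 shControl and 3 shZDHHC20 libraries of PANC-1 cells. The authors deposited 1 table of normalized signal, never negative, named as FPKM. All values above 0 of each library were whole multiples of its smallest value (within 0.05 of a step), as counts divided by 1 size factor are. The submitters' processing notes name hg19, and the aligner, counter and annotation are not given in the sources used here. The design was written for normalized values, and its test was applied unchanged. Columns named siZDHHC20 and NC were matched to samples by group and number.

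Symbols came from the reference table for 27175 of 27394 identifiers, and otherwise from GENCODE 29, which also gave exon lengths, overlaps and gene order on GRCh38. Promoter windows came from RefSeq for all 6 members. After a pseudocount of 0.1 was added, genes whose mean reached 1 were fitted with limma 3.58.1 in R 4.3.3 (lmFit, eBayes with trend), two-sided, with Benjamini-Hochberg adjustment over 22189 genes. The fit was tested on simulated data, with the same spread set for all libraries and changes placed only in genes above a minimum mean. That simulation therefore did not cover a library that stands apart, as shZDHHC20 replicate 2 did, or changes in low genes. The fit was repeated without the trend, with the replicate number as a block, without each library in turn, under quantile normalization or median-ratio scaling, with the pseudocount at 1 or 0.01, and with the filter dropped or raised to 5. Depth is known in steps of the smallest value, and no counting intervals are given.

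The members and lists were chosen with earlier results of these data known. The named genes are the members, the metallocarboxypeptidases, up to 4 called genes of each other list, the 5 genes most like LXN, its 5 nearest genes on each side and ZDHHC20, and 1 listed gene is not reported here. CTSZ, FURIN, CHGB, PCSK1, PCSK2, CSTA, CST1, CST7, RBP4 and the uncalled markers fall outside that rule and were named after their values were seen.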

Additional observations from a re-analysis of the deposited data

How the results depend on the processing

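The log2 difference of LXN was from 0.682 to 0.722 with each library left out and 0.746 under quantile normalization, and it stayed positive in all 14 alternatives. None of the metallocarboxypeptidases outside the members was called in any of the 14. The number of genes called over the whole table was 351 without the mean-variance trend, against 2541, and from 1233 to 4454 with each library left out, the last without shZDHHC20 replicate 2. With the replicate block it was 1942. Libraries with the same number did not deviate together (Pearson r across 10908 genes of -0.0948, -0.156 and -0.0771), so the numbers were not taken to pair the samples. Differences near 0 changed sign with 1 library left out, AGBL3 (-0.131 to 0.146), CPM (-0.227 to 0.195) and MFSD1 (-0.0416 to 0.0406, and 0.0029 under quantile normalization), and the cause was not tested. CST3 and SCG2 kept their calls in every alternative. CTSA, CSTB and SOX9 lost theirs without the mean-variance trend (adjusted p = 0.0635, 0.0984 and 0.106 from limma), and SCPEP1 there (0.143) and without shControl replicate 3 (0.0615). The planned edgeR test on recovered reads was not run. RARRES1, CPE and most A/B enzymes are too low here for a direction to be read.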

Other observations

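Genes of retinoid handling, listed because RARRES1 is a retinoic acid response gene, included 17 tested genes of 22 listed, 4 of them lower and none higher in the shZDHHC20 group, with a median log2 difference of -0.07, where 6.84% of all genes tested were lower and 4.61% higher. Of the 17 tested, 6 had a positive and 11 a negative difference. No enrichment was tested. STRA6, the membrane receptor for retinol-binding protein, went from 207.5 ± 29.3 to 95.6 ± 18.2 (SD, n = 3 for both), a log2 difference of -1.12 (standard error 0.159, adjusted p = 0.000514 from limma). RBP4, the gene of a retinol-binding protein, went the other way at a low level and was not called. Its log2 difference was 0.77 with a standard error of 0.283 (adjusted p = 0.106 from limma). RARA, a retinoic acid receptor, ALDH1A3, which makes retinoic acid, and CRABP2, which carries it in the cell, had log2 differences of -0.35, -0.40 and -0.25 (adjusted p = 0.00375, 0.00414 and 0.013 from limma). CRABP2 lost its call in 7 of 14 alternatives, including each fit without 1 shControl library. STRA6, RARA and ALDH1A3 lost theirs without the mean-variance trend (adjusted p = 0.0674, 0.0635 and 0.142 from limma) and in no other alternative. All 3 share exon bases with genes on the other strand.

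Enzymes that add to or trim tubulin tails, on which the cytosolic carboxypeptidases also act, included 13 tested genes of 15 listed, 1 of them higher and none lower, with a median log2 difference of -0.02, and with 11.5% of all genes called this count is near the background. The gene was TTLL3, a tubulin glycylase, at 250.6 ± 14.5 in the shControl and 343 ± 27.3 in the shZDHHC20 group (SD, n = 3 in each), a log2 difference of 0.45 (standard error 0.0971, adjusted p = 0.00878 from limma). TTLL3 shares 2217 exon bases with the readthrough gene ARPC4-TTLL3 on the same strand, so its value is uncertain, and it lost its call in 3 of 14 alternatives, including the fits without shControl replicate 1 (adjusted p = 0.0535) or 2 (0.0531).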
